A study of Mus musculus with 12 samples.

Results

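The genes described here encode the proteins of the cytosolic ribosome, and they were followed through 4 groups of mouse prefrontal cortex libraries. A gene was included if its symbol had the form of a cytosolic ribosomal protein gene (Rpl or Rps with a number and, where present, one of a few paralogue letters, or Rpsa, Rplp0, Rplp1 or Rplp2) and if its mean over the 12 libraries reached 5 CPM, a count scaled to the library total. Of the 55421 genes in the count table, 86 had such a symbol and 77 passed the level. These 77 comprised 43 proteins of the large subunit, the 3 stalk proteins and 31 proteins of the small subunit. The level was taken as a mean over all groups.

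The ribosome joins amino acids in the order that an mRNA prescribes. Its small subunit reads the codons, its large subunit forms the peptide bonds, and the stalk of the large subunit recruits the elongation factors. Ribosomal protein mRNAs are among the most abundant messages of a cell, and most begin with a run of pyrimidines, the 5′ terminal oligopyrimidine (TOP) tract, through which the mTORC1 kinase pathway and the protein Larp1 control their translation and stability. Neurons also carry ribosomes and ribosomal protein mRNAs into dendrites and axons, and new protein synthesis after training is needed for memory to be stored.

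PolyA RNA was measured in brain tissue of male wild-type C57BL/6 mice aged 10 to 12 weeks, all of which had been fear conditioned with a tone and a foot shock. The mice then received dexmedetomidine (Dex), a sedative agonist of alpha2 adrenergic receptors, at 40 µg per kg into the peritoneum, or normal saline, and tissue was labelled as taken 2 h after training. The titles name the prelimbic (PL) or the infralimbic (IL) prefrontal cortex, which with the treatments gives 4 groups of 3 libraries, called PL or IL with saline or Dex below. No group was left untrained, so effects of the training itself are not compared here. In the labels, sample numbers 1 to 3 are also batch numbers. Whether the 3 samples of a group are different mice is not stated, and p-values therefore speak only for the spread among these samples. Because the tissue is mixed, fewer cells of a type and less RNA per cell cannot be told apart in any value below.

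Library totals ran from 5419187 to 16530596 counts, with the 3 IL saline libraries at 10603069 or more. All 10 markers of cortical excitatory neurons were detected in every library, with a summed level of 3784 to 4640 CPM in PL and 2914 to 3730 CPM in IL. All 10 markers of striatal neurons were detected as well, at 1321 to 2047 CPM in the IL libraries and 303 to 922 CPM in the PL libraries. PL saline library 1 held that highest PL value, against 329 and 340 CPM in the other PL saline libraries. Of the 10 ependymal and choroid markers, Ttr, Folr1, Kcne2, Ccdc153 and Tmem212 were at 0 in some libraries, and the summed level was 18.6 to 36.5 CPM in IL and 5.94 to 14.5 CPM in PL.

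Of the 9 symbols below the level, Rpl6l (3.34 CPM) and Rps10 (3.27 CPM) lay just outside it, and Rps27l (5.66 CPM) and Rps4l (6.69 CPM) just inside. The remaining 7 were Rpl23a at 1.92 CPM, Rpl32l at 1.72 CPM, Rpl24 at 0.895 CPM, Rpl36al at 0.824 CPM, Rpl3l at 0.313 CPM, Rpl39l at 0.0631 CPM and Rpl10l, which had no count in any library. Rpl23a, Rpl24 and Rps10 encode core subunits, and in each of them at least 56.8% of the 50-base stretches of the longest coding transcript also occur in transcripts of another gene. Exons of RPS10-NUDT3 also overlap Rps10 on the same strand, as those of Gm28037 overlap Rpl24 and those of Snord42b overlap Rpl23a. A stretch shared with an overlapping gene is included in these percentages. Reads that map to several places were not counted, per the options in the file header. Such stretches made up a median of 44.7% of the transcript over the 77 genes, over 50% in 33 genes and under 20% in 15. How many reads of each gene were lost to shared stretches or to overlapping genes was not tested, and most values below compare 1 gene across libraries. Core subunits whose names fall outside the rule were Rps3a1 at 112 CPM, Rack1 at 82.3 CPM, Fau at 43.7 CPM and the Rps27 copy Rps27rt at 1.23 CPM.

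The annotated start of some of these genes carries the sequence for which the family is known. RefSeq promoters on GRCm38.p6, covering 250 bases before and 50 bases after each annotated start, were matched to 57 of the 77 genes with 68 promoters. A TOP tract, read as a C at the annotated start followed by at least 4 bases that are each C or T, was present in 12 of the 68 promoters (17.6%), against 2.51% of all 32851 promoters in the table. A longer tract, a C and at least 5 further C or T, lay within 15 bases of the start in 51.5% of them against 22.5% of all promoters, a window that was chosen after the sequences were seen. The motif CCGGAAGT, read by ETS factors such as GABP, was found on either strand in 17.6% against 3.89%, and TATAAA, a core promoter element, in 10.3% against 13.6%. These are matches of letters in a fixed window, and an annotated start can lie some bases from the one used in cortex.

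Of the 12 genes with a tract at the annotated start, 6 are shown because their levels are described below or, for Rpl35, because the tract is among the longest. Each line gives the 15 bases before the start in lower case and the 15 from the start on, with the tract in capitals.
Rpl15: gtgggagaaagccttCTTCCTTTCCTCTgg
Rpl35: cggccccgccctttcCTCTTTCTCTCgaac
Rps6: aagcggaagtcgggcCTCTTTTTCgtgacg
Rpl38: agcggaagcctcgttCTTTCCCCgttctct
Rps27: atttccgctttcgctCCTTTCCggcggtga
Rplp2: tgcgtcagcgtcttcCTTTCgccgccggac

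These windows lie at chr14:18270972-18271001 on the minus strand for Rpl15, chr2:39005117-39005146 on the minus strand for Rpl35 and chr4:86857353-86857382 on the minus strand for Rps6. They lie at chr11:114668565-114668594 on the plus strand for Rpl38, chr3:90213634-90213663 on the minus strand for Rps27 and chr7:141447636-141447665 on the plus strand for Rplp2. The tracts differ in length, with 13 bases in Rpl15, 11 in Rpl35, 9 in Rps6, 8 in Rpl38, 7 in Rps27 and 5 in Rplp2.

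Ribosomal protein mRNAs made up 0.370% of the counts in the library with the lowest share, PL Dex 2 (95% Wilson interval 0.365 to 0.374), and 0.563% in the one with the highest, IL Dex 2 (0.557 to 0.569), intervals that cover counting error only. By group the share was 0.460% ± 0.053 (SD, n = 3, as for every mean below) in PL saline, 0.419% ± 0.074 in PL Dex, 0.495% ± 0.051 in IL saline and 0.502% ± 0.056 in IL Dex. The group ranges overlap. Per kilobase of annotated exon, the highest levels over the 12 libraries were those of the stalk protein Rplp1 at 236 CPM, the small-subunit protein Rps15 at 139, Rpl4, which lines the peptide exit tunnel, at 98.8, Rps29 at 78.9 and Rpl8 at 70.2. The lowest were Rpl13a at 3.76, Rpl21 at 5.38, Rps27l at 6.95, Rps4l at 7.07 and Rpl22l1 at 7.13 CPM per kilobase. Ranks between genes also depend on how many reads each gene lost to shared stretches, which was not tested. Without the correction for length, Rpl3, a protein next to the peptidyl transferase centre, had the highest level at 220 CPM, followed by Rpl4 at 198 CPM and Rpsa at 128 CPM.

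The genes rose and fell together from library to library. To show this, the log2 CPM of each gene was set against its own mean over the 12 libraries, and these deviations were averaged over the 77 genes. In PL saline the average deviation was −0.143, 0.116 and 0.180 in libraries 1, 2 and 3, and in PL Dex it was −0.275, −0.375 and 0.237. In IL saline it was −0.160, 0.193 and 0.0559, and in IL Dex −0.130, 0.244 and 0.0568. PL Dex library 3 was thus at the top of the PL libraries while PL Dex libraries 1 and 2 were the lowest of all 12.

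Nearly the whole family took part in these shifts. In PL Dex libraries 1 and 2 only 2 of the 77 genes each lay above their own mean, against 69 in PL Dex library 3. Within PL Dex, 75 genes were highest in library 3 and 59 lowest in library 2. In IL saline 67 genes were lowest in library 1 and 63 highest in library 2, and in IL Dex 65 were lowest in library 1 and 59 highest in library 2. The first principal component of the 77 genes held 64.6% of their variance. Taken gene by gene, 15 members deviated to the same side as the average of the others in all 12 libraries, 17 in 11 and 18 in 10.

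**Figure D1:**
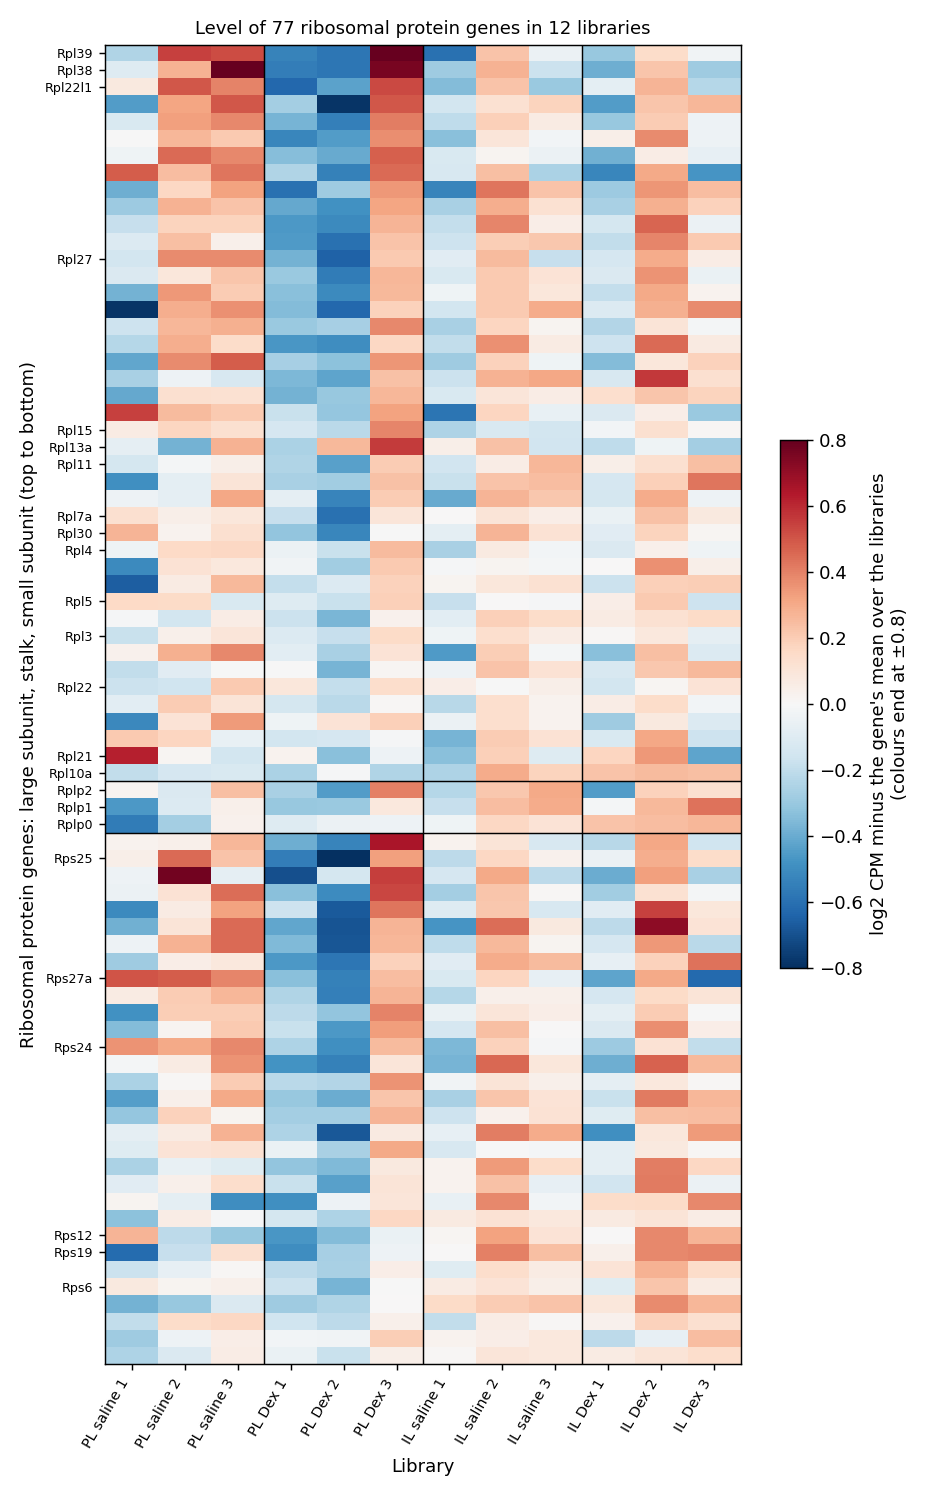
Deviation of each of the 77 genes (rows, some with names of genes described in the text) from its own mean log2 CPM in each of the 12 libraries (columns), grouped by large subunit, stalk and small subunit and, within these, ordered by how far PL Dex libraries 1 and 2 lie below library 3. Blue columns in PL Dex libraries 1 and 2, where 75 of the 77 genes were below their mean, stand beside a mostly red PL Dex library 3.

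Some members did not follow the rest. Rpl21, a large-subunit protein, deviated to the side of the others in 5 of the 12 libraries, and its levels in PL saline were 27.7, 18.1 and 16.1 CPM, with the highest in the library where most of the family was low. Rps12 and Rpl13a matched in 6 libraries, and Rpl5 and Rps4l in 7. Rpl13a had a mean of only 7.95 CPM and Rps4l of 6.69 CPM, where counting error is larger. The steadiest members were Rpl3 with an SD of 0.12 on the log2 CPM scale over the 12 libraries, Rps2 with 0.12 and Rpl22 with 0.14. The most variable were Rpl39 with 0.48, Rpl38 with 0.47 and Rps29 with 0.43, against a median of 0.28 over the family and 0.31 over all 20015 genes tested, whose median level was lower (11.7 against 55.0 CPM).

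Rpl39, a short protein of the peptide exit tunnel, shows the shared pattern at its strongest. Its level was 26.3, 45.5 and 44.8 CPM in the PL saline libraries and 21.4, 20.8 and 57.5 CPM in those of PL Dex. In IL it was 20.5, 36.5 and 30.2 CPM after saline and 25.2, 34.5 and 30.5 CPM after Dex. PL Dex thus holds both its highest value and values near its lowest. Rpl38, a large-subunit protein with a tract of 8 pyrimidines at its start, was at 26.5, 34.5 and 50.5 CPM in the PL saline libraries and at 19.2, 18.9 and 48.2 CPM in those of PL Dex. The 10 members with under 1000 bases of annotated exon had a median SD of 0.32 and a median level of 31.5 CPM, and the 35 with 2000 bases or more a median SD of 0.24 and a median level of 60.7 CPM.

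The first comparison asks whether ribosomal protein mRNAs differ after Dex in the prelimbic cortex. The median log2 fold change of the 77 genes was −0.19, and 65 of them were lower and 12 higher, beside a median of 0.00 over all genes tested, of which 9953 of 20015 were higher. Single members ranged from −0.63 to 0.27. None passed an adjusted p of 0.05 in edgeR's quasi-likelihood test, against 4 of all genes (0.02%). No member did in DESeq2 either, against 140 of the 12517 genes that it adjusted (1.12%). At an unadjusted p under 0.05, 6 of the 77 members were lower and none higher. Of all 20015 genes, 1390 were lower and 1396 higher at that p (13.9% in either direction). Counted in both directions, the share of members was smaller than that of genes in general. In the lower direction alone the shares were close. By role, the median was −0.23 over the 43 large-subunit genes, 0.00 over the 3 stalk genes and −0.14 over the 31 small-subunit genes.

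**Figure D2:**
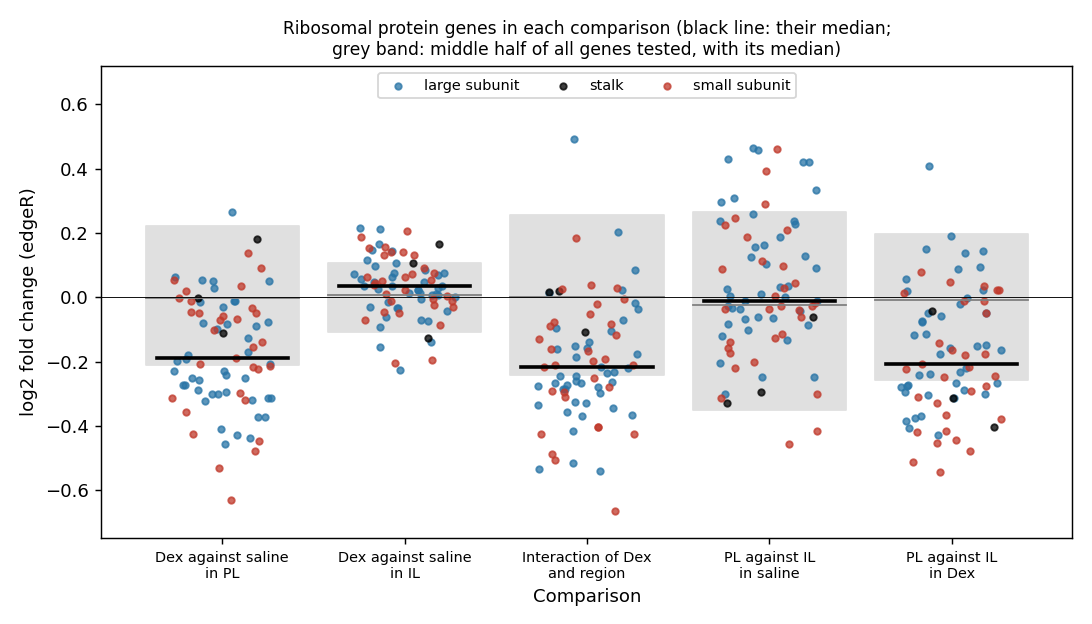
Log2 fold changes (vertical axis) of the 77 genes in the 5 comparisons, as points coloured by subunit, with their median as a black line and the interquartile range and median of all 20015 genes tested in grey. The members' median lies at −0.19 for Dex in PL, −0.22 for the interaction and −0.21 for PL against IL after Dex, and near 0 in the remaining comparisons.

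The spread between libraries was large beside this shift. The average deviation of the family was 0.051 ± 0.171 in PL saline and −0.138 ± 0.328 in PL Dex, and the ranges overlapped. Between libraries of the same batch number, Dex minus saline was −0.131 in batch 1, −0.491 in batch 2 and 0.0572 in batch 3, with 27, 7 and 50 of the 77 genes higher after Dex. The direction thus held in batches 1 and 2 and was opposite in batch 3. Groups did not overlap in 4 members, all lower after Dex, where 6.82% of all genes were lower and 7.57% higher without overlap.

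The 4 members without overlap were Rps24, Rps6, Rpl30 and Rps27a. Rps24, a small-subunit protein mutated in Diamond-Blackfan anaemia (chr14:24487125-24496959, ENSMUSG00000025290), was at 128, 123 and 130 CPM in the PL saline libraries and at 83.6, 70.7 and 119 CPM in those of PL Dex. The saline libraries lay close together, and the gap to PL Dex library 3 was small. Its log2 fold change was −0.48 ± 0.17 (SE), with an adjusted p of 0.249. In IL it was at 77.4, 113 and 98.7 CPM after saline and 81.1, 108 and 86.6 CPM after Dex, so PL saline held the highest levels of this gene.

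Rps27a encodes ubiquitin fused to a small-subunit protein (chr11:29545846-29548109, ENSMUSG00000020460). Its level was 29.2, 28.8 and 27.0 CPM in PL saline, against 16.3, 14.0 and 24.4 CPM in PL Dex. The log2 fold change of −0.63 ± 0.22 was the most negative of the family, with an adjusted p of 0.242. An exon of Clhc1 overlaps it on the opposite strand, and the counts do not use strand. Rpl30, a large-subunit protein (chr15:34440505-34443640, ENSMUSG00000058600), was at 59.9, 50.5 and 54.3 CPM in the PL saline libraries and at 39.9, 34.4 and 49.6 CPM in those of PL Dex (−0.41 ± 0.14, adjusted p 0.237). Here PL saline library 1 was the highest, unlike the family as a whole. Rps6, the protein whose phosphorylation by S6 kinases is the common readout of mTORC1 activity, was at 82.3, 79.1 and 80.1 CPM in the PL saline libraries and at 69.1, 60.2 and 77.7 CPM in those of PL Dex. Its log2 fold change was −0.22 ± 0.11 with an adjusted p of 0.382, and the file says nothing of the protein's phosphorylation.

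Also among the smallest p-values were Rpl27 at −0.46 ± 0.20 and Rpl7a at −0.29 ± 0.14, with adjusted p-values of 0.331 and 0.358. Rps25, a small-subunit protein needed for initiation at some viral RNAs, had the same adjusted p as Rpl7a and followed the library pattern closely, with 65.7, 87.0 and 74.5 CPM in the PL saline libraries and 43.2, 34.1 and 79.7 CPM in those of PL Dex. Its PL Dex library 3 exceeded the saline mean of 75.7 CPM.

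**Figure D3:**
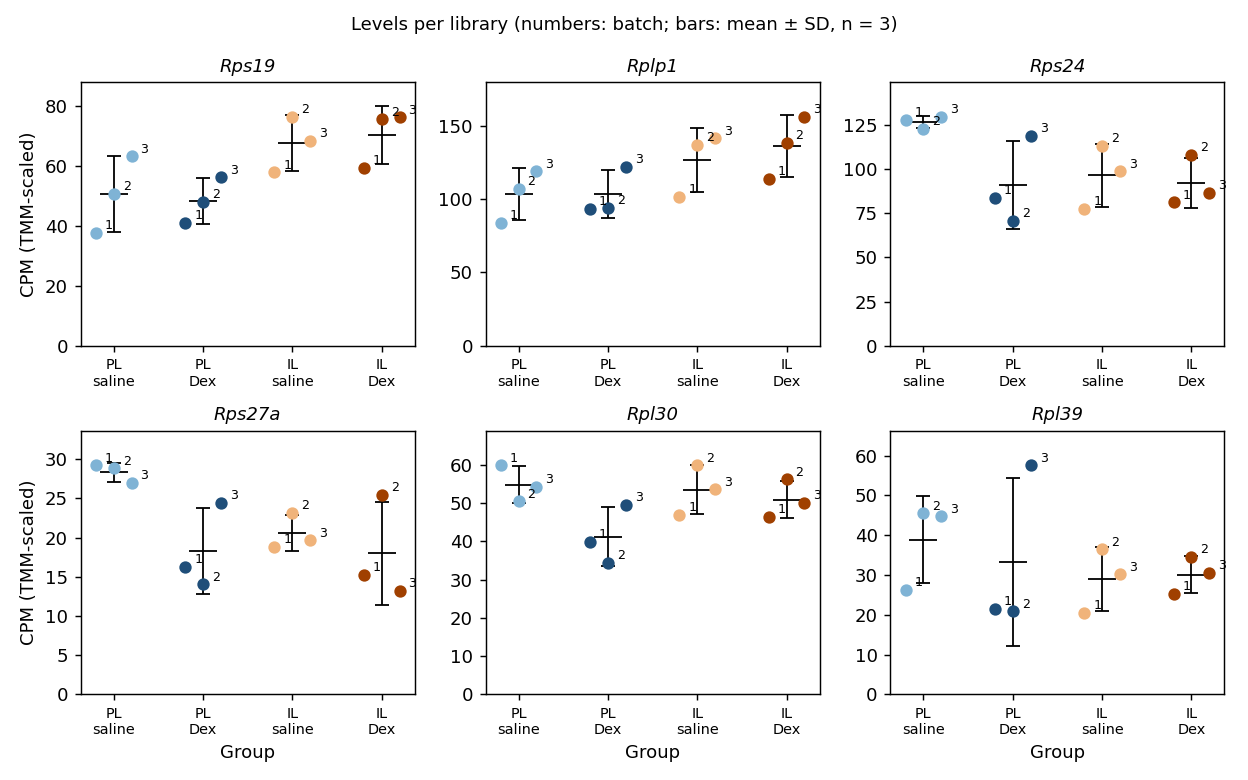
CPM on TMM-scaled library sizes (vertical axis, from 0) of 6 genes in the 3 libraries of each group, with batch numbers beside the points and bars for mean ± SD. Rps19 lies lower in all 3 PL Dex than in all 3 IL Dex libraries, Rplp1 is highest in IL Dex library 3, Rps24, Rps27a and Rpl30 separate PL saline from PL Dex with PL Dex library 3 nearest, and Rpl39 spreads most within PL Dex.

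A single library decides how the prelimbic comparison reads. Without PL Dex library 3, 14 members were called lower and none higher (edgeR, adjusted p under 0.05), beside 4.25% of all genes lower, and the median was −0.353. The 5 with the smallest adjusted p there were Rps25 (−0.96), Rps24 (−0.71), Rpl9 (−0.65), Rpl17 (−0.64) and Rps20 (−0.56). Leaving out PL saline library 1 as well gave 24 members called lower, beside 3.4% of all genes, and a median of −0.446; that pair of libraries was picked with their values known. In the opposite direction, the median shrank to −0.0519 without PL Dex library 2, to −0.0769 without PL Dex library 1 and to −0.0779 without PL saline library 3, each with 0 calls.

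**Figure D4:**
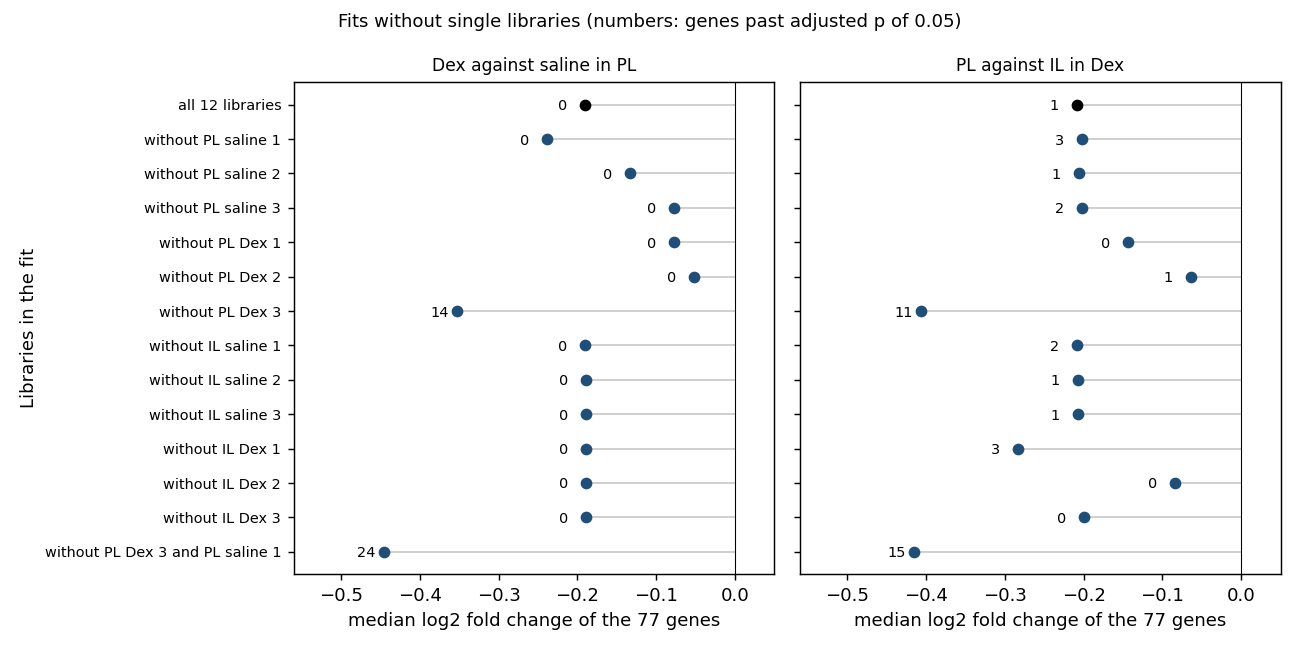
Median log2 fold change of the 77 genes (horizontal axis) for Dex against saline in PL and for PL against IL after Dex, with all 12 libraries and without 1 library or a pair of them. Numbers beside the points count the genes past an adjusted p of 0.05, which go from 0 to 14 on the left and from 1 to 11 on the right when PL Dex library 3 is left out.

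In libraries of both regions the level of genes also moved with their GC content. The slope of the deviation on GC content over all genes tested, per 10 percentage points, was −0.249, −0.302 and −0.0700 in PL saline and 0.119, 0.0980 and −0.0632 in PL Dex. It was 0.0248, 0.0883 and 0.132 in IL saline and −0.00940, 0.0423 and 0.190 in IL Dex. The median log2 fold change of all genes for Dex in PL went from −0.25 in the quintile of genes lowest in GC to 0.25 in the highest quintile. Ribosomal protein transcripts had a median GC content of 51.8% against 48.7% over all genes. In each GC quintile their median lay below that of all genes, from −0.31 beside −0.25 in the lowest to −0.08 beside 0.25 in the highest. The lowest quintile held only 3 members and the next 10, against 20 in the highest. After a correction for GC content the median of the 77 genes was −0.221, as large as before, and again no member was called. Quintiles by exon length gave −0.24 for the 26 members among the shortest genes, beside −0.05 over all genes there. For PL against IL after saline, the median of all genes went from 0.27 in the lowest GC quintile to −0.30 in the highest.

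In the infralimbic cortex the family was at nearly the same level after Dex as after saline. The median log2 fold change was 0.03, with 52 of 77 members higher, beside 0.01 over all genes. No member passed the adjusted p of 0.05 in edgeR or DESeq2, as no gene did in edgeR (0.0%), and none had an unadjusted p under 0.05, beside 1.06% of all genes. Within batches the average deviation was 0.0300, 0.0508 and 0.000899 higher after Dex in batches 1, 2 and 3, so the low library 1 and the high library 2 recur in both IL groups. Groups did not overlap in 3 members, all higher after Dex. Of all 20015 genes, 759 were higher and 798 lower without overlap (7.78% in either direction).

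The 3 were Rpl15, Rplp0 and Rpl10. Rpl15, a large-subunit protein whose start is printed above (chr14:18267823-18271391, ENSMUSG00000012405), was at 66.6, 72.7 and 71.5 CPM in IL saline and at 78.1, 86.7 and 79.9 CPM in IL Dex. This is a log2 fold change of 0.22 ± 0.13 with a 95% interval of −0.05 to 0.48, and the adjusted p was 1.00. For the stalk protein Rplp0, levels were 82.5, 94.5 and 91.0 CPM in IL saline and 98.9, 100 and 102 CPM in IL Dex (0.17 ± 0.12, interval −0.08 to 0.42). Rps7, Rpsa and Rpl10a followed with 0.15, 0.14 and 0.14. The direction of the median in IL turned to −0.0505 without IL saline library 1 and to −0.0584 without IL Dex library 2.

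Whether the effect of Dex differed between the regions was tested with the interaction, Dex against saline in PL minus the same in IL. The median over the 77 genes was −0.22, with 11 positive, beside 0.00 over all genes. No member passed the adjusted p of 0.05 in edgeR or DESeq2, as no gene did in edgeR (0.0%), and none had an unadjusted p under 0.05, beside 6.73% of all genes. Members with the smallest p were Rpl27 (−0.54 ± 0.29), Rps7 (−0.31 ± 0.17), Rps25 (−0.66 ± 0.34), Rps20 (−0.40 ± 0.22) and Rpl17 (−0.51 ± 0.28), with adjusted p-values of 0.716 to 0.718. The 95% interval of Rps25 ran from −1.41 to 0.08. Without PL Dex library 3, Rps25 (−1.10) and Rpl17 (−0.86) were called, beside 0.505% of all genes lower.

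The second axis of the design compares the regions. After saline the family did not lean to either side: the median was −0.01 for PL against IL, with 37 of 77 higher, beside −0.02 over all genes. In edgeR 1 member was called, whose values are not reported here, in a comparison that called 18.7% of all genes. At an unadjusted p under 0.05 there were 4 members higher and 4 lower, beside 32.6% of all genes, and groups did not overlap in 9 members (6 higher and 3 lower) beside 40.3% of all genes. Counts of members thus lay below those of genes in general. After Dex the median was −0.21, with 16 of 77 higher, beside −0.01. Again 1 member was called, where 7.34% of all genes were. At an unadjusted p under 0.05, 13 of the 77 members were lower in PL and none higher. Of all 20015 genes, 1941 were lower and 2021 higher at that p (19.8% in either direction). Groups did not overlap in 9 members, all lower. Of all genes, 2160 were lower and 2157 higher without overlap (21.6% in either direction). The PL saline and PL Dex libraries differ as described above, so the same PL Dex libraries 1 and 2 enter this median.

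Rps19, needed to mature the small subunit and mutated in Diamond-Blackfan anaemia (chr7:24884371-24889806, ENSMUSG00000040952), was at 37.7, 50.8 and 63.2 CPM in the PL saline libraries and 40.9, 48.0 and 56.2 CPM in those of PL Dex. In IL it was 57.9, 76.4 and 68.3 CPM after saline and 59.3, 75.5 and 76.3 CPM after Dex. PL Dex lay wholly below IL Dex, whereas the saline groups overlapped. The 10 striatal markers were likewise all lower in PL in both comparisons, and their part in these differences was not tested. The differences were −0.42 ± 0.16 after saline (adjusted p 0.0848) and −0.54 ± 0.17 after Dex (adjusted p 0.0556). With the batch number as a block, Rps19 was called in both, at adjusted p-values of 0.0132 and 0.00657. Whether libraries with the same number in PL and IL share a mouse is not stated. The fit with the block called 4 members lower after saline (among them Rps19, Rplp1 and Rplp0), beside 10.0% of all genes lower, and 5 after Dex (among them Rps19, Rplp1, Rpl10a and Rps16), beside 4.17%. Without PL Dex library 3, 11 members were called lower after Dex, beside 2.38% of all genes, and Rps19 was not among them (adjusted p 0.0560). Rps19 after Dex was called in 15 of 25 alternatives, DESeq2 (0.0461) and the GC correction (0.0391) included, with its log2 difference between −0.67 and −0.43 in all 25. After Dex the next smallest p-values belonged to Rps12 (−0.51 ± 0.16, adjusted p 0.0632), Rpl10a (−0.41 ± 0.13, 0.0664) and Rpsa, a small-subunit protein also known as the laminin receptor (−0.31 ± 0.11, 0.0880). Small nucleolar RNAs lie in exons counted for Rps12.

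Higher in PL after saline, without a call, were Rps24 (0.39 ± 0.17, adjusted p 0.107) and Rpl15 (0.30 ± 0.13, 0.113). Rpl36a and Rps27a followed with 0.46 ± 0.20 and 0.46 ± 0.21, at adjusted p-values of 0.118 and 0.130. For Rps24 and Rps27a the PL saline libraries were also the ones above PL Dex, so the same 3 libraries enter both differences.

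The stalk proteins, through which elongation factors are recruited, are given together. Rplp0 was at 57.2, 69.7 and 86.3 CPM in the PL saline libraries and at 78.5, 81.7 and 82.1 CPM in those of PL Dex, with the lowest value in PL saline library 1. Rplp1 was at 84.0, 107 and 119 CPM in the PL saline libraries and 93.7, 94.1 and 122 CPM in those of PL Dex, against 102, 137 and 142 CPM in IL saline and 114, 139 and 156 CPM in IL Dex. PL against IL gave −0.33 and −0.31 for Rplp0 and −0.30 and −0.40 for Rplp1, after saline and Dex, with adjusted p-values of 0.0636 to 0.195. For Rplp2 these values were −0.06 and −0.04. Its levels of 34.5, 31.4 and 40.3 CPM in PL saline lay within the range of 28.9 to 42.1 CPM in IL saline. Rpl5 and Rpl11, which with 5S ribosomal RNA can bind and block Mdm2, differed from each other: Rpl11 followed the family, at 48.7, 42.5 and 66.3 CPM in PL Dex, whereas Rpl5 was at 77.9, 74.0 and 95.9 CPM there and at 93.5, 93.1 and 77.1 CPM in PL saline.

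Paralogues were counted at lower levels per kilobase than their parents, a comparison between genes in which the share of lost reads was not tested. Rpl22l1 was at 7.13 CPM per kilobase against 16.6 for Rpl22, Rps27l at 6.95 against 26.4 for Rps27, Rpl7l1 at 7.58 against 44.8 for Rpl7 and Rps4l at 7.07 against 67.0 for Rps4x. Rpl3l, Rpl39l and Rpl10l, known from muscle or testis, and Rpl36al had means over the 12 libraries at or below 0.824 CPM. Rpl22l1 followed the family in PL more steeply than its parent, with 14.5, 19.5 and 18.2 CPM in the PL saline libraries and 8.81, 10.1 and 19.9 CPM in those of PL Dex, while Rpl22 stayed between 42.2 and 55.7 CPM in all 12 libraries. With 65.6% of its 50-base stretches shared against 5.19% in Rpl22, the counts of Rpl22l1 are the less certain. None of the 8 genes was called in any of the 5 comparisons.

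Sets defined by sequence are given side by side. The 33 members with over 50% shared stretches had average deviations of −0.284, −0.360 and 0.198 in PL Dex libraries 1, 2 and 3, and the 15 with under 20% had −0.245, −0.282 and 0.293. In PL saline the values were −0.112, 0.110 and 0.150 for the first set and −0.180, 0.159 and 0.162 for the second. In IL Dex they were −0.0824, 0.252 and 0.0435 for the first and −0.187, 0.153 and 0.0700 for the second. Median log2 fold changes for Dex in PL were −0.17 and −0.05, and for PL against IL after Dex −0.25 and 0.01. The 12 genes with a TOP tract at the annotated start had a median of −0.10 for Dex in PL, with 1 positive, and the other 45 with a matched promoter −0.21, with 8 positive. Whether these sets differ was not tested.

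Core subunits outside the naming rule behaved in different ways. Rps3a1 was at 119, 123 and 124 CPM in the PL saline libraries and at 106, 81.1 and 134 CPM in those of PL Dex, and Fau, a ubiquitin-like protein fused to a small-subunit protein, at 48.3, 40.1 and 47.4 CPM and at 33.8, 35.1 and 57.4 CPM. Both were low in PL Dex libraries 1 and 2 and high in library 3. Rack1, a signalling scaffold on the small subunit, stayed between 73.1 and 90.9 CPM in all 12 libraries. The under-threshold Rpl6l was the only gene of this list past the threshold, with 4.94 ± 0.65 CPM in the PL and 2.06 ± 0.22 CPM in the IL saline libraries (log2 fold change 1.26 ± 0.35, adjusted p 0.0164), with 76.4% of its stretches shared.

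Other genes of translation and of large protein complexes were summarised in the same way. The 76 nuclear genes for subunits of oxidative phosphorylation had average deviations of −0.108, 0.153 and 0.272 in PL saline and −0.199, −0.305 and 0.328 in PL Dex, where the order of the libraries was that of the ribosomal genes. In IL they were at −0.181, 0.055 and 0.0548 after saline and −0.198, 0.0483 and 0.0800 after Dex, without the high library 2 of the ribosomal genes. Their median for Dex in PL was −0.13, with 20 of 76 higher and no call. Translation factors had a narrower range, from −0.115 to 0.185 in PL Dex, and a median of −0.07, with 18 of 48 higher and no call. For PL against IL after saline 12 of the 48 were called higher and none lower. Of all 20015 genes, 1996 were called higher and 1741 lower (18.7% in either direction). Among them were Eif1ax (0.52), Eif2s2 (0.58) and Eif3j1 (0.68), and also Nap1l1 (0.47), a histone chaperone that the list includes. After Dex 1 translation factor was called higher, where 761 of all genes were higher and 708 lower (7.34% in either direction). The 77 mitochondrial ribosomal proteins had a median of −0.03 for Dex in PL with no call, and of 0.13 for PL against IL after saline with 1 higher and 1 lower. Ribosome biogenesis factors had −0.09 over 44 genes for Dex in PL with no call, and Wdr12 (0.35) alone was higher in PL than IL after saline.

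**Figure D5:**
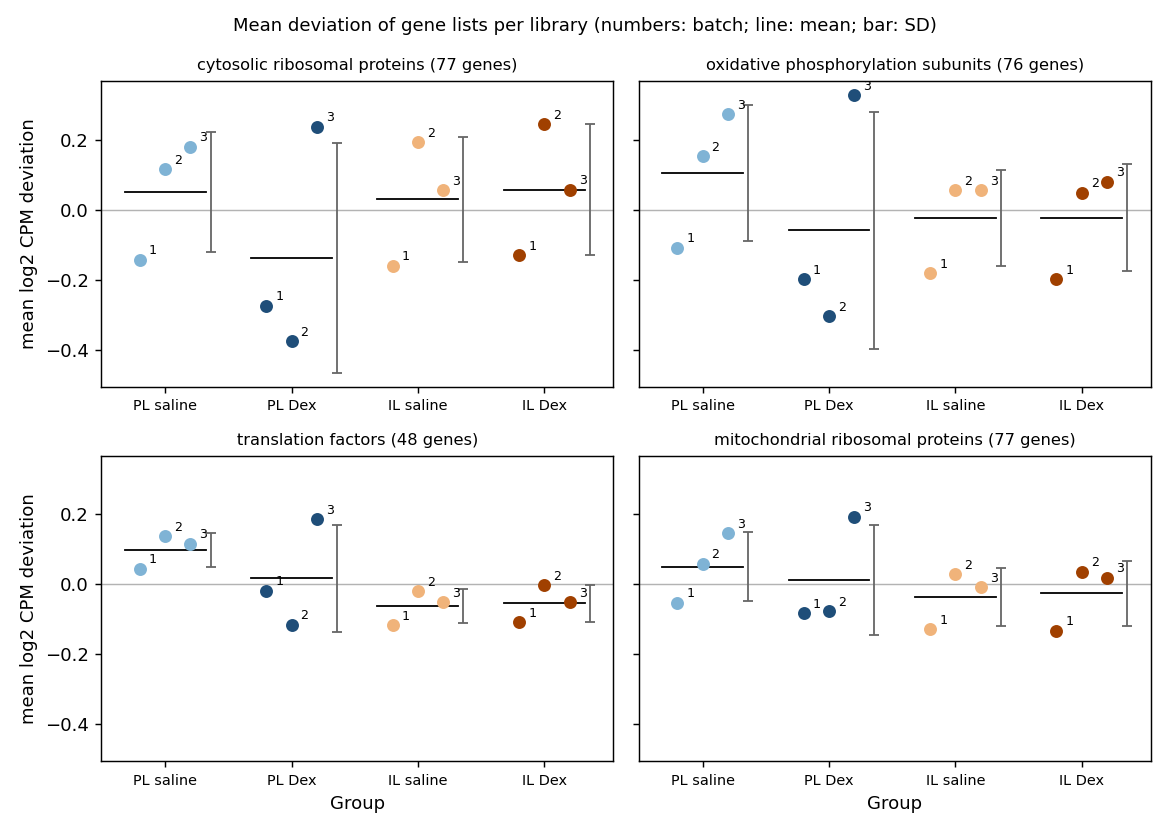
Average deviation of log2 CPM (vertical axis) per library for the 77 ribosomal protein genes and for 3 further lists, with batch numbers beside the points, the group mean as a line and the SD as a bar. The ribosomal and oxidative phosphorylation genes share the low PL Dex libraries 1 and 2 and the high library 3, and both IL groups have library 1 lowest.

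The genes of regulators of TOP mRNAs and mTORC1 had a median of 0.18 for Dex in PL, with 13 of 21 higher and no call. For PL against IL after saline 3 were higher and 4 lower, beside 18.7% of all genes in either direction, led by Deptor, an inhibitor of mTOR, at 1.41 after saline and 1.20 after Dex. The S6 kinase genes Rps6kb1 and Rps6kb2 went in opposite directions after saline, at 0.38 and −0.59, and Rps6ka3 was higher at 0.52. Of the ribosomal protein pseudogenes, 41 were tested, none was called in any of the 5 comparisons, and their median for Dex in PL was −0.10. Markers of oligodendrocytes, all 10 detected in every library, were summed at 4942, 1914 and 3137 CPM in PL Dex libraries 1, 2 and 3 and at 3543, 2640 and 2846 CPM in PL saline. The PL Dex libraries in which ribosomal genes were low thus held both the highest and the lowest oligodendrocyte level in PL. Some other markers, though not all, were lower in both of those libraries than in PL Dex library 3. Pan-neuronal markers were summed at 7453, 6815 and 8951 CPM in PL Dex libraries 1, 2 and 3. In the same order, markers of inhibitory neurons were at 667, 581 and 738 CPM and endothelial markers at 219, 227 and 288 CPM. Astrocyte markers were at 6906, 5586 and 7450 CPM. Mural and meningeal markers (12 genes, with Tagln at 0 in 2 of the 12 libraries) were at 420, 316 and 425 CPM. Microglia markers, at 271, 239 and 270 CPM, were lower in library 2 only. Excitatory neuron markers were highest in library 1, at 4640, 4263 and 4519 CPM. Striatal neuron markers, at 515, 377 and 303 CPM, were higher in libraries 1 and 2 than in library 3. In PL saline libraries 1, 2 and 3 the pan-neuronal sum was 8121, 8470 and 8329 CPM. Apart from the mural and meningeal list, all 10 genes of each of these lists were detected in every library. The part of these markers in the ribosomal values was not tested.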

How the data were processed

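PolyA RNA-seq libraries of 12 tissue samples were analysed, 3 in each of 4 groups of region and treatment, with groups taken from the labels. The extraction protocol names prelimbic tissue throughout while 6 titles name IL, and the titles were followed. The authors' table holds unnormalized counts of reads for each gene, deposited as whole numbers and made with featureCounts 2.0.1 on exons of the GRCm38 release 98 annotation, without strand, per the file headers. The submitters' processing notes also name bcl2fastq, Trim Galore, HISAT2, SAMtools 1.8 and mm39, so the build used for alignment is not settled here. The deposited table's exon lengths were used for levels per kilobase. A further 12 columns that match no label were not used.

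Symbols were matched for 55154 of 55421 genes. Genes were kept by filterByExpr (20015 tested), scaled by TMM and tested with edgeR 4.0.16 (quasi-likelihood, 4 group means, 8 residual degrees of freedom) in R 4.3.3, with Benjamini-Hochberg adjustment over all tested genes at 0.05. Fold changes are log2, with SE and 95% intervals from that model. Deviations use log2 CPM with a prior count of 2. Levels are CPM on TMM-scaled totals unless a mean over 12 libraries is given, which uses library totals. Members hold 24518 to 81965 counts per library. The procedure was tested on simulated counts. As alternatives, 28 settings were tried, among them DESeq2 1.42.0 and corrections for GC content and exon length by lowess with a span of 0.3.

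Named genes were those past the threshold, otherwise the 5 with the smallest p in each comparison, the 5 highest and 5 lowest per kilobase, paralogues, the 3 most and 3 least variable, those at the CPM limit and a short list of well-known members. Subunits outside the naming rule were named with their values. Others, such as members without overlap between groups or called only under an alternative, and those that did not follow the family, were named after their values were seen. The members, lists and left-out pair of libraries were chosen with earlier results of these data known. The labels give each number a batch, so the number was used as a block in an alternative. Same-numbered libraries correlated in their deviations at 0.284 to 0.337 within IL, 0.00857 to 0.108 within PL and −0.0983 to 0.191 across regions. Values of some genes are not reported here.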

Additional observations from a re-analysis of the deposited data

How the results depend on the processing

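Of 278 recomputed counts and medians, 240 stayed within the limits set for them and 38 moved, and of 620 values of single members 548 kept direction and call, 63 gained a call, 8 lost one and 1 turned. That one was Rpl10a for Dex in IL, at −0.000928 without IL saline library 1, the lowest of −0.000928 to 0.254 with 1 library left out. For Dex in PL the count called was 1 with no low-count filter (0.496% of all genes) and 24 without both PL Dex library 3 and PL saline library 1 (median −0.446), and 0 to 14 with 1 library left out at a time (median −0.353 to −0.0519). For the interaction it was 1 without that pair (median −0.482) and 0 to 2 with 1 library left out (median −0.414 to −0.0801).

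For PL against IL after saline the count called, 1 as reported, was 3 with no filter, 2 with upper-quartile factors, 5 with library totals, 7 with only the 2 groups compared, 0 with the GC correction and 7 without the pair, and 1 to 4 with 1 library left out. After Dex, also 1 as reported, it was 5 with no filter, 2 with upper-quartile factors, 7 with library totals, 4 with GC correction, 2 with length correction, 4 with both, 2 in DESeq2 and 15 without the pair, and 0 to 11 with 1 library left out. Library totals moved the median of all genes by −0.113 after saline, to −0.138, and by −0.0781 after Dex, to −0.0878. Of all genes, the share called after saline lay between 10.1% (no filter) and 24.9% (only the 2 groups compared) under these settings, with 13.1% under the GC correction, and 8.98% to 22.1% with 1 library left out, beside 18.7% as reported. After Dex it lay between 4.71% (no filter) and 9.44% (GC correction), with 7.96% in DESeq2 and 5.94% without the pair, and 3.75% to 8.29% with 1 library left out, beside 7.34% as reported. With the replicate block the counts were 4 after saline and 5 after Dex, 3 and 7 with GC correction added, and 2 and 2 with length correction added, where the block alone called 20.9% and 8.63% of all genes; the block changed no count for Dex or the interaction. The cause of these changes was not tested. Precision is limited with 3 libraries a group: leaving out 1 library moved the count called for Dex in PL between 0 and 14.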
